A study of Rattus norvegicus with 12 samples.

Results

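Complement is the branch of innate immunity in which a cascade of proteases deposits fragments on a surface and, at its end, builds a pore in the membrane. The classical pathway starts with the C1 complex, whose proteases C1r and C1s cleave the next components. The alternative pathway is amplified by factor D, and both lead to the cleavage of C3, the central component. Host cells hold the cascade back with C1 inhibitor (Serping1), with the membrane proteins Cd55 and Cd59, and with the secreted chaperone clusterin (Clu). The liver makes most of the complement in plasma, but connective tissue cells, macrophages and fat cells make components too, and complement proteins have been found in growing cartilage.

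The 8 genes described here are C1r, C1s, C3, Cfd, Serping1, Cd55, Cd59 and Clu, of 30045 gene symbols in the count files. They were chosen by symbol, as complement genes that cells of the skeleton can make, and the genes of C1q were left out. The choice was made with earlier results of the same drug comparisons known. The levels and fold changes below therefore describe the genes, and the number that passed the test is no independent support for a change of the pathway.

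RNA sequencing was done on metatarsals, the long bones of the foot, from Sprague Dawley rat fetuses at embryonic day 19. The bones were cultured for 72 h in medium that held ethanol as vehicle (control), 1 µM dexamethasone (Dex), 10 mM LiCl with ethanol (LiCl), or 1 µM dexamethasone and 10 mM LiCl (Dex + LiCl). Dexamethasone is a synthetic glucocorticoid that acts through the glucocorticoid receptor, and LiCl inhibits the kinase that marks β-catenin for breakdown and so raises Wnt signaling. Each group had 3 libraries, and a library was made from 1 pool of bones of one treatment, so n = 3 pools per group throughout and errors measure the spread between pools.

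Total counts were between 9055581 and 21953446 per library, with 10761816 to 21953446 in control and 9263078 to 11685463 with Dex. The deepest libraries were control and LiCl libraries, so a gene with few reads was counted less precisely in the Dex libraries. Known targets of the drugs were looked at first. Fkbp5 was higher with Dex than in control by 2.86 ± 0.10 (log2 fold change ± SE), Tsc22d3 by 1.56, and with LiCl the Wnt targets Axin2 and Nkd2 were higher by 0.68 and 1.5. Whole bones were sequenced, and the summed level of the chondrocyte markers (9 of 10 listed were in the files) was 52920 to 85710 CPM (counts relative to the library total) over the 12 libraries.

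Levels are given as CPM after scaling of the libraries with TMM, and they are compared between groups but not between genes, because transcript length was not taken into account. A gene was kept if 2 or more libraries held 60 or more of its counts, which left 12602 genes, all 8 complement genes among them. Cfd and Serping1 reached 60 counts in control libraries only, so a high control level decided that they were tested. A difference passed at a Benjamini-Hochberg adjusted p under 0.05 over all 12602 genes in edgeR's quasi-likelihood test, and fold changes are log2 values with their SE.

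Upstream sequences from RefSeq (build GRCr8) are shown for C3, C1r and Cfd, the members whose entry ended at the annotated start of the gene. Their levels followed the drugs differently: C3 was highest with Dex, Cfd was lowest with LiCl, and C1r did not pass in any comparison. Each line holds the 250 bases before the start of the gene, 5′ to 3′ on the strand of the gene. Capitals mark the only matches found in them, to the C/EBP motif TTGCNNAA (N is any base).
C3, chr9:2201340-2201589, minus strand: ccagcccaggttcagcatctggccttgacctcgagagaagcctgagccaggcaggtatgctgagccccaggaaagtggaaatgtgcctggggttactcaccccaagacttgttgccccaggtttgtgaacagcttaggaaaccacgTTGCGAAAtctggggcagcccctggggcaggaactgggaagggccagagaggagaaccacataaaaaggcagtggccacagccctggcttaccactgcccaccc
C1r, chr4:159098763-159099012, plus strand: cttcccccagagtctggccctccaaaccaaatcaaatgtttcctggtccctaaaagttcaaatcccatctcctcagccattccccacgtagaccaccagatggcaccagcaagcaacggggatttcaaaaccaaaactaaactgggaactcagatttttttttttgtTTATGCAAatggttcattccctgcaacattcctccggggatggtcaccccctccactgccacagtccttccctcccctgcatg
Cfd, chr7:10465497-10465746, minus strand: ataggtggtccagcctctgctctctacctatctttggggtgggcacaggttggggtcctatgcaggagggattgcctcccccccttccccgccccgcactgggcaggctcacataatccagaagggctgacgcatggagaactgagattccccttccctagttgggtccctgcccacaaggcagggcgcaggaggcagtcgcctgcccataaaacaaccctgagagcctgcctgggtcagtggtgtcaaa

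C3 held the C/EBP motif at bases -104 to -97, counted from the start of the gene, and C1r held it on the opposite strand at bases -83 to -76. Of 33469 rat promoters of the same length, 9.22% held that motif on either strand. None of the 3 sequences held the glucocorticoid receptor half-site AGAACA (17.5% of all promoters), the TCF/LEF motif CTTTGA (13.9%), the NF-kB motif GGANNTTCC (3.36%), the STAT motif TTCNNNGAA (7.67%) or the TATA box TATAAA (12.9%), all searched on both strands. Letters that match are a description and not a bound site, and the absence of a match concerns these windows only. The entry for Cd55 was searched too and matched none of these motifs. It lies inside the annotated gene, so its sequence is not shown. C1s, Clu, Cd59 and Serping1 had no entry. C1r and C1s lie next to each other on chromosome 4, with 0 annotated genes between them in GRCr8.

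Dex against control asked what the glucocorticoid did to the bones, and of the 8 complement genes only C3 passed, in the upward direction. The other 7 did not pass, though C1s did with the replicate number added to the model (edgeR adjusted p = 0.0202). Over all genes tested 5.45% were higher and 5.49% lower with Dex, which sets the 1 of 8 higher and 0 of 8 lower in context. The median log2 fold change of the 8 genes was 0.09, beside 0.00 over all genes.

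LiCl against control asked what lithium alone did, and 5 of the 8 genes were lower: Cd55, Cfd, Serping1, Clu and C1s. None was higher, and C3, C1r and Cd59 did not pass. Among all genes 4.71% were higher and 5.9% lower with LiCl, and the median of the 8 genes was -0.64, beside 0.00 over all genes. Without Cfd and Serping1, which entered the test through control, 3 of 6 were lower. The medians of the 8 genes, here and with Dex, include both, so the count filter favoured lower values against control.

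The addition of LiCl to Dex asked whether lithium altered the response to the glucocorticoid. Here Clu, Cd55 and C1s were lower than with Dex alone and no member was higher, where 4.78% of all genes were lower and 3.82% higher. The median was -0.57. Dex + LiCl against control gave 3 lower members (Clu, Cfd and Serping1) and 0 higher ones, with 11.8% of all genes lower and 10.8% higher. Without Cfd and Serping1, 1 of 6 was lower there. Dex + LiCl against LiCl gave 1 higher member, Cd55, and 0 lower ones, with 3.79% of all genes higher and 3.09% lower. These comparisons share libraries with each other, so their values are set side by side and are not independent of one another.

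**Figure D1:**
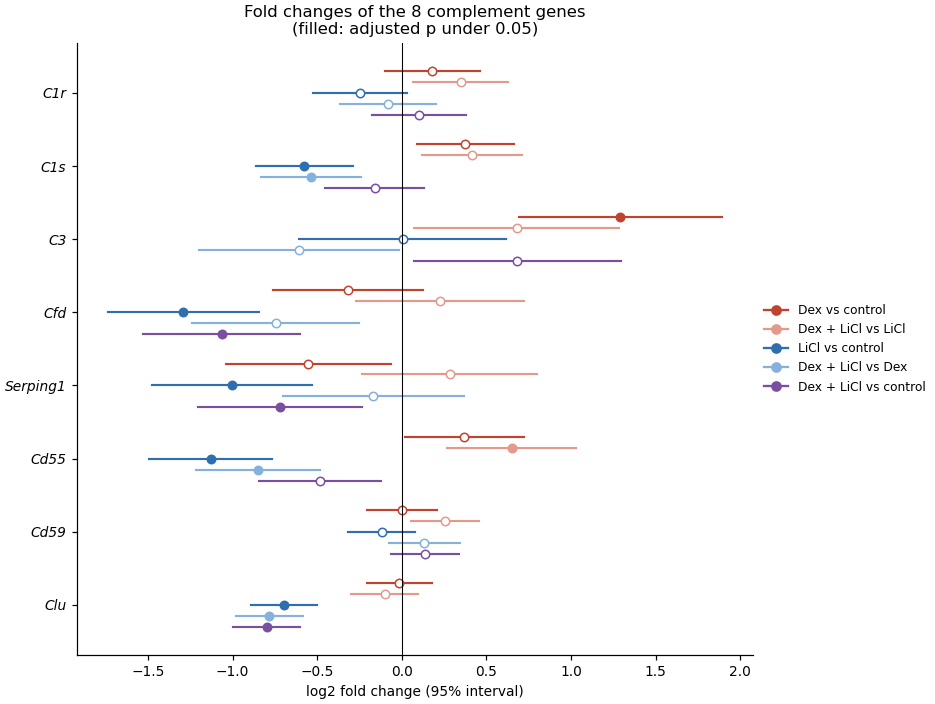
Log2 fold changes (x axis) with 95% intervals for the 8 complement genes in 5 comparisons, with filled points where the adjusted p from edgeR was under 0.05. The LiCl comparisons lie to the left for Clu, Cd55, C1s and Cfd, while the Dex comparison of C3 lies to the right at 1.29.

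C1r, the protease that activates itself within C1 and then cleaves C1s, did not pass in any comparison. Its level was 38.4, 42.0 and 29.2 CPM in control, 45.5, 42.5 and 35.3 with Dex, 28.2, 34.2 and 29.3 with LiCl, and 38.5, 42.0 and 36.5 with Dex + LiCl. Every Dex pool and every Dex + LiCl pool lay above every LiCl pool, and the other groups overlapped. C1r did not pass with Dex (0.18 ± 0.13, edgeR adjusted p = 0.436) or with LiCl (-0.25 ± 0.13, adjusted p = 0.245). The difference between Dex + LiCl and LiCl was 0.35 ± 0.13 (adjusted p = 0.161), and it passed with the replicate number as a block (adjusted p = 0.0325).

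C1s, the protease of C1 that cleaves C4 and C2, had levels that separated the groups more. Control pools held 37.5, 31.9 and 30.0 CPM, Dex pools 42.9, 44.6 and 41.7, LiCl pools 23.7, 23.7 and 19.6, and Dex + LiCl pools 37.7, 26.8 and 25.4. Every LiCl pool was below every control pool, and every Dex pool was above every pool of the other groups. Replicate 1 of Dex + LiCl lay at the control level and the other pools of that group between LiCl and control.

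With LiCl, C1s was lower than in control by a log2 fold change of -0.58 ± 0.14 (edgeR adjusted p = 0.0131), and when LiCl was added to Dex by -0.54 ± 0.14 (adjusted p = 0.0249). With fewer libraries neither always passed. The first was -0.47 (adjusted p = 0.0608) without control replicate 1 and -0.49 (0.0759) without LiCl replicate 3. The second had an adjusted p of 0.0562 to 0.116 when any Dex library, or Dex + LiCl replicate 2 or 3, was left out, with fold changes of -0.56 to -0.42. C1s did not pass with Dex alone (0.38 ± 0.13, edgeR adjusted p = 0.0921, but 0.0202 with the replicate block). Dex + LiCl exceeded LiCl by 0.41 ± 0.14 (adjusted p = 0.0977, and 0.0228 with the replicate block). The rat reference also lists a pseudogene of C1s, so reads could be split between near-identical copies.

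**Figure D2:**
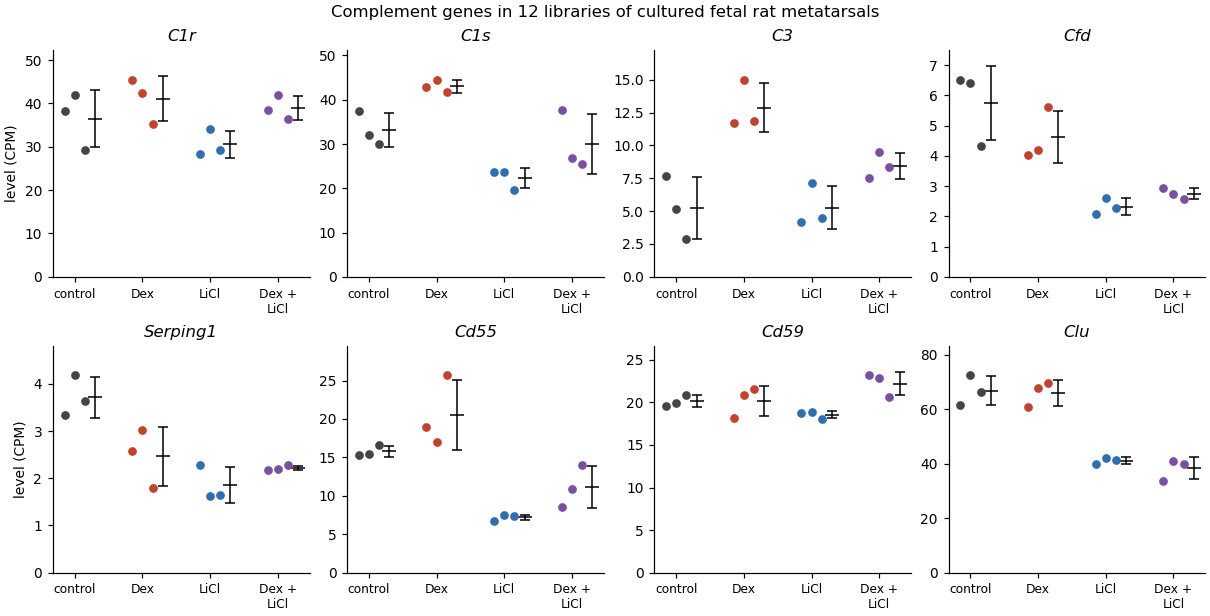
Level in CPM (y axis, from 0, its own scale for each gene) of the 8 complement genes in 12 libraries, with a point per pool and the group mean with its SD (n = 3). LiCl and Dex + LiCl pools sit below control and Dex pools for Clu, while C3 is highest in the 3 Dex pools.

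C3, whose cleavage releases the inflammatory fragment C3a and the surface-binding fragment C3b, passed with Dex. No other member did so in the fit with the groups as the only term. Its level was 7.65, 5.20 and 2.87 CPM in the control pools and 11.7, 15.0 and 11.9 CPM in the Dex pools. All Dex pools were above all control pools, although the control pools differed widely among themselves (5.24 ± 2.39 CPM, SD, n = 3). The log2 fold change was 1.29 ± 0.28 (95% interval 0.69 to 1.89, edgeR adjusted p = 0.00661), which is a ratio of 2.45. It passed in each alternative run, with a fold change of 0.97 to 1.73.

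With LiCl, C3 held 4.15, 7.13 and 4.50 CPM, within the range of control. The difference from control was 0.01 ± 0.29, and its 95% interval of -0.61 to 0.62 leaves room for a change of either sign. In Dex + LiCl the pools held 7.54, 9.49 and 8.35 CPM, below every Dex pool and above every LiCl pool. C3 in Dex + LiCl did not pass against Dex (-0.61 ± 0.28, adjusted p = 0.207), against LiCl (0.68 ± 0.28, adjusted p = 0.227) or against control (0.68 ± 0.29, adjusted p = 0.102). The last difference moved with the control pools left out. It was 1.13 (adjusted p = 0.0126) without replicate 1, the highest, and 0.36 (adjusted p = 0.324) without replicate 3, the lowest.

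Macrophages make C3, and their markers moved in both directions with Dex. The summed level of the macrophage list (11 of 12 markers in the files, none at 0 in any group) was 115 to 160 CPM in control, 153 to 171 with Dex, 90.5 to 93.0 with LiCl and 114 to 126 with Dex + LiCl. With Dex 3 of the 11 markers were higher (Cd163, Mrc1 and Lyz2) and 2 lower (Cd68 and Mpeg1), and with LiCl 6 were lower and none higher. The shares over all genes were 5.45% higher and 5.49% lower with Dex, and 4.71% higher and 5.9% lower with LiCl. Cd163 passed the count filter only through pools given Dex, and Aif1 only through control pools. The filter therefore favoured Cd163 as higher with Dex and Aif1 as lower against control. Hepatocyte markers, for the cell type that supplies plasma C3, summed to 2.14 to 9.64 CPM over all libraries. None of them was kept by the count filter. Albumin (Alb) had 4 counts over the 12 libraries, too few to compare groups. Serpina1 was the highest of the list in each group. Its mean was 2.21 CPM in control, 3.56 with Dex, 1.87 with LiCl and 5.64 with Dex + LiCl. The part of macrophages in the level of C3 was not tested, and in bulk bone fewer cells of a type cannot be told apart from less RNA per cell.

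Cfd, which encodes factor D (adipsin), the protease that cleaves factor B and for which fat cells are the best known source, fell with LiCl. Control pools held 6.53, 6.41 and 4.33 CPM (145, 69 and 86 counts), and LiCl pools held 2.07, 2.62 and 2.28 CPM (29, 50 and 47 counts). No LiCl pool reached the lowest control pool. The log2 fold change was -1.29 ± 0.21 (95% interval -1.74 to -0.84, edgeR adjusted p = 0.00124), or 0.41 of the control level.

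With Dex the Cfd pools held 4.04, 4.20 and 5.6 CPM and overlapped control, and the difference did not pass (-0.32 ± 0.21, adjusted p = 0.378). Dex + LiCl pools were close together at 2.95, 2.74 and 2.57 CPM. They were lower than control by a log2 fold change of -1.06 ± 0.22 (adjusted p = 0.00227) and below every Dex pool, a difference that did not pass (-0.75 ± 0.23, adjusted p = 0.0581). Between Dex + LiCl and LiCl the pools overlapped. Cfd was counted with 27 to 50 reads outside control, so it passed the count filter only through control. It passed against control, with LiCl and with Dex + LiCl, in each alternative that kept it, and thinning all libraries to the smallest removed it from the test.

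Adipocyte markers moved with Cfd in the LiCl comparison. The summed level of the 10 markers was 50.6 to 71.6 CPM in control, 49.2 to 64.2 with Dex, 23.8 to 27.2 with LiCl and 40.1 to 55.6 with Dex + LiCl. Of the 4 markers tested, 3 were lower with LiCl (Adipoq, Fabp4 and Lpl) and none was higher, beside 5.9% lower and 4.71% higher over all genes. Adiponectin (Adipoq), which defines the cell type, was 2.42 to 6.87 CPM in control, 0.104 to 1.18 with Dex, and at most 0.0715 with LiCl and 0.0912 with Dex + LiCl. Adipoq reached 60 counts in control pools only, so it entered the test through the group where it was high. With Dex, Adipoq was lower while Cfd overlapped control. Fabp4 carried much of the sum in some groups, and every Dex pool of it lay above every control pool. No adipocyte marker passed as higher with Dex, however. Fabp4 held 12.85 to 22.55 CPM in control, 24.09 to 41.46 with Dex, 2.859 to 5.612 with LiCl and 21.72 to 33.3 with Dex + LiCl. Without it, as a check chosen after the values were seen, the 9 other markers summed to 37.7 to 49.1 CPM in control, 22.8 to 26.7 with Dex, 20.1 to 24.4 with LiCl and 18.4 to 22.8 with Dex + LiCl. All treated pools were then below all control pools, which for Dex and Dex + LiCl held only with Fabp4 left out. The part of fat cells in the level of Cfd was not tested.

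**Figure D3:**
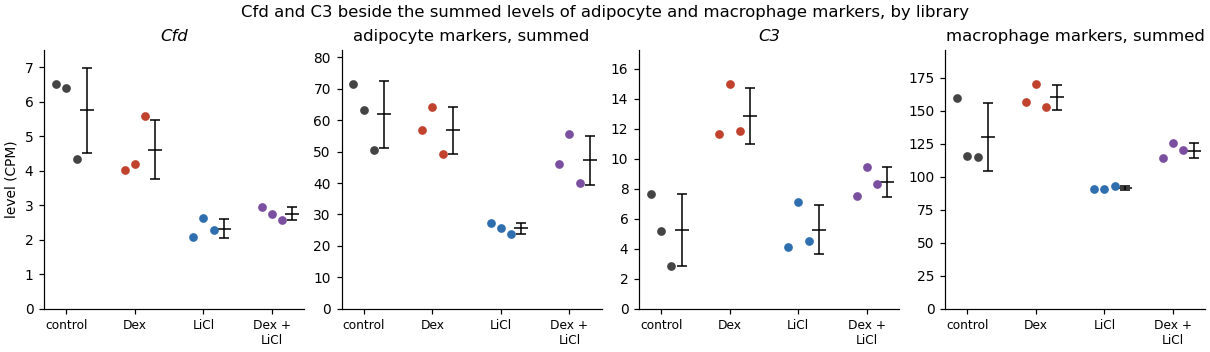
Level in CPM (y axis, from 0) of Cfd, of the 10 adipocyte markers summed, of C3 and of the 11 macrophage markers summed, with a point per pool and the group mean with its SD (n = 3). The LiCl pools are the lowest for both marker sums, and the adipocyte sum with Dex + LiCl is 40.1 to 55.6 CPM, Fabp4 included.

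Among the inhibitors, Serping1 acts first. It encodes C1 inhibitor, which inactivates C1r and C1s and also restrains the kinin system. Control pools held 3.33, 4.18 and 3.63 CPM, Dex pools 2.59, 3.02 and 1.79, LiCl pools 2.29, 1.63 and 1.65, and Dex + LiCl pools 2.19, 2.19 and 2.28. All 9 treated pools lay below all control pools, and the treated groups overlapped. The gene was counted with 16 to 39 reads in treated pools and 45 to 74 in control pools.

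With LiCl the log2 fold change of Serping1 was -1.0 ± 0.22 (edgeR adjusted p = 0.00893, and 0.0515 without LiCl replicate 3), and with Dex + LiCl it was -0.72 ± 0.23 (adjusted p = 0.0327). The second did not pass with no count filter (adjusted p = 0.0579) or without control replicate 2 or any one Dex + LiCl library (0.0743 to 0.0878). With Dex alone it did not pass (-0.55 ± 0.23, adjusted p = 0.15), nor did Dex + LiCl against Dex (-0.17 ± 0.25) or against LiCl (0.28 ± 0.24). Without control replicate 1 or 3, too few control libraries reached 60 counts and Serping1 left the test, as it did after thinning.

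Cd55, also called decay-accelerating factor, sits in the membrane on a lipid anchor and takes apart the enzymes that cleave C3. Its LiCl pools stood far from the others. Control pools were tight at 15.3, 15.5 and 16.6 CPM, and LiCl pools were as tight at 6.79, 7.45 and 7.36 CPM. LiCl thus left a level of 0.46 of control, with a log2 fold change of -1.13 ± 0.17 (95% interval -1.49 to -0.77, edgeR adjusted p = 6.69e-04).

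Dex pools of Cd55 held 18.9, 17.0 and 25.7 CPM, all above control, but the spread was wide and the difference did not pass (0.37 ± 0.16, adjusted p = 0.182). Dex + LiCl pools held 8.52, 10.9 and 14.0 CPM and lay between LiCl and control without overlap with either. LiCl added to Dex lowered Cd55 by -0.85 ± 0.17 on the log2 scale (adjusted p = 0.00636), which passed in each alternative run without a fold minimum. Against control the difference was -0.48 ± 0.17 (adjusted p = 0.0531, and 0.0142 with the replicate block). Against LiCl, Cd55 was higher by 0.65 ± 0.18 (adjusted p = 0.0386), but the adjusted p was 0.0525 to 0.258 when Dex replicate 1, any LiCl library, or Dex + LiCl replicate 2 or 3 was left out.

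Cd59, which shares the lipid anchor and stops the membrane pore from being completed, did not pass in any comparison. It held 19.6, 20.0 and 20.9 CPM in control, 18.2, 20.8 and 21.5 with Dex, 18.8, 18.8 and 18.1 with LiCl, and 23.2, 22.8 and 20.7 with Dex + LiCl. With Dex the 95% interval of its log2 fold change was -0.20 to 0.21, and with LiCl -0.32 to 0.08, so a change of the size of Cd55 with LiCl lies outside both intervals. Dex + LiCl pools were all above LiCl pools by 0.25 ± 0.09, which did not pass (edgeR adjusted p = 0.15). The symbol Cd59 corresponds to Cd59b in the current RefSeq annotation.

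Clu encodes clusterin, a secreted chaperone that binds unfolded proteins and the terminal complement complex. Its pools divided by LiCl and not by Dex. Control pools held 61.7, 72.4 and 66.5 CPM and Dex pools 60.7, 67.8 and 69.5 CPM. LiCl pools held 39.9, 42.2 and 41.5 CPM and Dex + LiCl pools 33.7, 41.2 and 40.0 CPM. All 6 pools given LiCl lay below all 6 pools without it.

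LiCl lowered Clu by a log2 fold change of -0.70 ± 0.09 against control (edgeR adjusted p = 1.88e-04) and by -0.78 ± 0.09 when added to Dex (adjusted p = 9.87e-05). Dex + LiCl was lower than control by -0.80 ± 0.09 (adjusted p = 1.56e-05). These differences had the smallest SE of those that passed among the 8 genes, and each passed in every alternative run without a fold minimum. Dex alone gave -0.02 ± 0.09 (95% interval -0.21 to 0.18), and Dex + LiCl against LiCl gave -0.10 ± 0.09.

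Whether LiCl acted differently in the presence of Dex was tested with the interaction of the drugs. None of the 8 genes passed in edgeR or in DESeq2. In edgeR 0.0% of all genes passed with a positive and 0.00794% with a negative interaction, and in DESeq2 25 genes passed. At an unadjusted p under 0.05 there was 1 member, Serping1, with an interaction of 0.83 ± 0.33 on the log2 scale (edgeR adjusted p = 0.832). The C3 interaction was -0.61 ± 0.40 and that of Cfd 0.54 ± 0.31. Their intervals of -1.46 to 0.24 and -0.12 to 1.21 were too wide to say that the drugs acted additively.

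The rest of the pathway was described with a list of 46 other complement genes, of which 18 were kept. The 28 others had too few reads, and 20 of these had fewer than 60 counts in all 12 libraries together. The genes of the membrane pore components C5, C6, C8a, C8b and C9 were among those 20. C7 and C8g, also of the terminal pathway, were kept, with 674 and 868 counts in total, and passed in no comparison. Mbl2 (a mannose-binding lectin), Colec10 and C4bpa had no reads. C4a and C4b had 4 and 57 counts in total, and as near-identical copies they may share reads that could not be assigned.

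In Dex against control 4 of these 18 genes were higher and 0 lower, beside 5.45% higher and 5.49% lower over all genes. They were the 3 chains of C1q, the recognition part of C1 and mainly a macrophage product, with log2 fold changes of 0.69 for C1qa, 2.14 for C1qb and 1.97 for C1qc, and Csmd2 (1.71), a membrane protein with complement control domains that reached 60 counts only in pools given Dex. The median over the 18 was 0.20. Beside its partners C1r and C1s, C1qb rose from 9.77 ± 3.40 to 42.9 ± 5.56 CPM (SD, n = 3), while C1r went from 36.5 ± 6.60 to 41.1 ± 5.25 CPM and C1s from 33.2 ± 3.93 to 43.1 ± 1.44 CPM. The difference between these genes in response was not tested.

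In LiCl against control 3 of the 18 were lower and 0 higher, with a median of -0.25. Over all genes 5.9% were lower and 4.71% higher. Factor B (Cfb), the substrate of factor D, changed by -1.06 ± 0.26 (edgeR adjusted p = 0.0162). The others were Csmd3 (-0.80) and Cr1l (-0.34), which in rodents encodes a membrane inhibitor of C3 cleavage. With Cfd among the members, factor D and factor B were both lower with LiCl, while C3 did not pass. The number of lower genes was 0 without LiCl replicate 1 and 1 without control replicate 1 or LiCl replicate 3, and it was 5 without control replicate 3 or Dex replicate 2.

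When LiCl was added to Dex, 3 of the 18 genes were lower (5 with the replicate block, and 5 without control replicate 2) and 0 higher: Csmd3 (-1.26), Csmd2 (-0.61) and the scavenger receptor Colec12 (-0.34), with a median of -0.29. Over all genes 4.78% were lower and 3.82% higher.

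Dex + LiCl against control gave 4 higher genes (C1qb 1.84, C1qc 1.83, Csmd2 1.10 and the lectin pathway protease Masp2 0.38) and 3 lower ones (Cfb -1.06, Csmd3 -0.89 and Colec12 -0.42), with a median of 0.00. Over all genes 10.8% were higher and 11.8% lower in that comparison. Against LiCl, Dex + LiCl had 4 higher genes, C1qa, C1qb, C1qc and Csmd2, with log2 fold changes of 0.65 to 2.20, and none lower. Csmd2 entered the test only through pools given Dex, so the count filter favoured it as a higher gene here and against control. Over all genes 3.79% were higher and 3.09% lower there. No gene of the list passed for the interaction, and 2 had an unadjusted p under 0.05. One of them was the receptor of C3a, C3ar1, whose level was 2.60 CPM in control, 4.76 with Dex, 2.64 with LiCl and 2.54 with both (interaction -0.92 ± 0.40, edgeR adjusted p = 0.838).

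**Figure D4:**
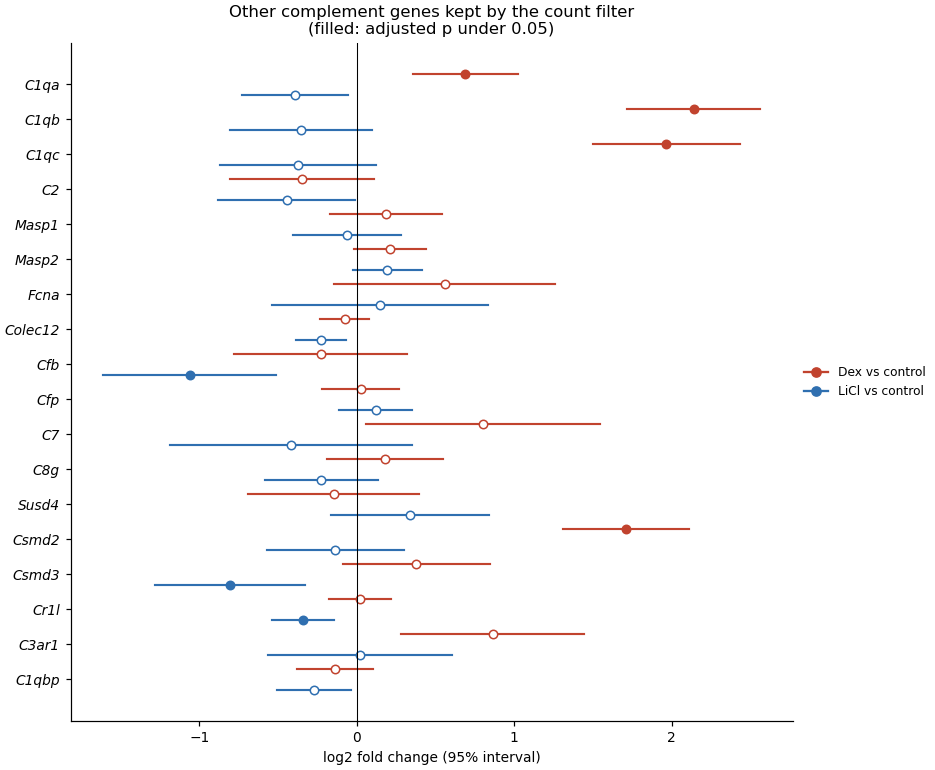
Log2 fold changes (x axis) with 95% intervals for the 18 other complement genes kept by the count filter, for Dex and for LiCl against control, with filled points where the adjusted p from edgeR was under 0.05. The C1q genes and Csmd2 lie to the right with Dex, and Cfb, Csmd3 and Cr1l to the left with LiCl.

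Of 16 factors known to act on complement or acute-phase genes, 13 were tested. With Dex 4 were higher, the transcription factors Cebpd (1.70 ± 0.23) and Cebpb (0.71 ± 0.16), the NF-kB inhibitor Nfkbia (1.10 ± 0.09) and the oncostatin M receptor Osmr (0.98 ± 0.19), and 1 was lower, Irf1 (-0.61 ± 0.14). With LiCl 1 was lower and 0 higher, and that was Cebpb (-0.90 ± 0.17, edgeR adjusted p = 0.00298). Over all genes 5.45% were higher and 5.49% lower with Dex, and 4.71% higher and 5.9% lower with LiCl. The cytokines that induce C3 in many cells had few reads or none, with 9 counts of Il6, 61 of Il1b and 0 of Tnf over the 12 libraries. Their part in the level of any complement gene was not tested.

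Across the 12 libraries the 8 genes did not follow a single pattern. The 28 pairwise Pearson correlations of log2(CPM + 0.5) had a median of 0.442 and ran from -0.192 for C3 and Serping1 to 0.87 for Cfd and Clu. Clu and Cd55 had 0.825, Cfd and Cd55 0.792, C3 and C1r 0.753, and C1r with its neighbour C1s 0.654. Cd59 had at most 0.333 with any other member. The libraries share the drug groups, so these values describe the patterns above and no more.

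The genes most like each member over the same 12 libraries were taken from all genes kept. For Clu they were Gas2 (Pearson r = 0.981), Epyc (0.969), a proteoglycan of growing cartilage, and Sertad4 (0.965). For Cfd they were Fbln5 (0.956), Sertad4 (0.942) and the collagen gene Col5a2 (0.941), so that Sertad4 stood near both. C3 was closest to Cd47 (0.917), the membrane protein that restrains uptake by phagocytes, Eif4e3 (0.915) and Cct6a-ps1 (0.91).

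C1s was closest to Fam180a (0.964), Gpcpd1 (0.933) and LOC102548505 (0.929), and C1r to Rpl11 (0.938), the chemokine Cxcl14 (0.926) and Ifitm3 (0.913). Cd55 had LOC102553018, the mitochondrial kinase gene Pink1 and Galnt16, all at 0.949, and Serping1 had Tnnc1 (0.93), Zc3h8 (0.905) and Serf1 (0.904). Cd59 had the lowest values, Iqcb1 (0.823), Mdh1 (0.811) and Zfp455 (0.805). These values describe likeness over 12 libraries in 4 groups, picked from 12602 genes, and say nothing of shared function or control.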

How the data were processed

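The deposited values were raw counts per gene symbol for 12 libraries. According to the methods of the study, the authors aligned paired-end reads of strand-specific mRNA libraries with Subread, removed duplicate reads with Picard, counted reads per gene with HTSeq-count, and then merged technical replicates. The strand setting of the counting and the tool versions are not given in the sources used here. The submitters' processing notes name a human genome build (hg19, GRCh37) for these rat libraries, so no coordinates were derived from the counts. The series table of counts held the same values as the per-sample files in all 12 columns, and 0 columns were left unused. Duplicates had been removed without molecular identifiers, so a count is not a molecule.

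Libraries were grouped by treatment as labelled. The count filter of the study was used (60 or more counts in 2 or more libraries), which kept 12602 of 30045 genes. Counts were scaled with TMM and fitted in edgeR 4.0.16 (R 4.3.3) with the 4 groups as the only term, and the quasi-likelihood F-test was two-sided with Benjamini-Hochberg adjustment over all genes kept. CPM are TMM-scaled. SE is the log2 fold change divided by the square root of F, and 95% intervals use the t distribution of the fit. The test was checked on simulated counts. The alternatives were RLE scaling, DESeq2 1.42.0, edgeR's filterByExpr, no count filter (23569 genes with at least 1 count), a fold minimum of 2, a replicate block (the library number added to the model), fits restricted to the groups compared, thinning to 9055581 counts per library, and each library left out in turn. Python 3.11.15 with pandas 2.3.3 served for the tables and matplotlib 3.10.9 for the plots.

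The genes named are the 8 members, other complement genes of the list that passed in at least 1 comparison, Fkbp5, Tsc22d3, Axin2 and Nkd2 as drug checks, defining markers of a cell type whose list moved beside a member, and the 3 kept genes most correlated with each member. The genes C3ar1, C7 and C8g, the markers Aif1 and Serpina1, the listed factors that passed and the genes with few reads were named after their values had been seen. A further complement gene is not reported here. The members, gene lists and alternatives were chosen with earlier results of these data known. Promoter sequences and gene order are from RefSeq (GRCr8), which held 19073 of the symbols by their current name.

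The labels number the libraries of each group from 1 to 3 without saying what a number stands for. The study states that pools came from 3 rats, and it describes 3 experiments that each supplied bones to every treatment group. It does not tie the numbers to rats or experiments. After group means were removed, same-numbered libraries correlated at 0.209 to 0.302 for control and LiCl, 0.133 to 0.294 for control and Dex + LiCl, 0.191 to 0.5 for Dex and Dex + LiCl, 0.278 to 0.413 for LiCl and Dex + LiCl, and 0.027 to 0.17 for control and Dex. All but the last were over 0.1 in each pair, a cut chosen here. The values for control and Dex were low but positive, and they do not show that these pools were unpaired. Numbers that pair the other groups would pair control and Dex as well. The block is therefore read as an alternative in every comparison. All values reported are from the fit without the block unless it is named.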

Additional observations from a re-analysis of the deposited data

How the results depend on the processing

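Over the 880 values of single members under alternatives, the fold minimum apart, 823 kept their direction and their side of the threshold, 20 no longer passed, 18 newly passed and 19 changed sign. All changes of sign concerned differences that did not pass. Cd59 with Dex, 0.00 in the fit reported, was -0.004 with filterByExpr, -0.0141 with no count filter, -0.0009 with the replicate block and -0.0461 after thinning, and C3 with LiCl was -0.0029 with the replicate block. With 1 library left out, the log2 fold changes with Dex ran from -0.0748 to 0.0432 for Clu and from -0.0433 to 0.0697 for Cd59, that of C3 with LiCl from -0.3143 to 0.4474, that of Serping1 with LiCl added to Dex from -0.3398 to 0.023, that of C1r with both drugs against control from -0.0441 to 0.2026, and the C1s interaction from -0.1485 to 0.1528.

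The number of the 8 genes that passed with Dex was 1, and 2 with no count filter or with the replicate block, which added C1s (adjusted p = 0.0202). Each experiment of the study supplied all groups, but whether the numbers follow the experiments was not settled by the check made. With LiCl it was 5, and 3 after thinning or with a fold minimum of 2. With LiCl added to Dex it was 3, and 0 with the fold minimum. With both drugs against control it was 3, and 1 after thinning or with the fold minimum. Against LiCl it was 1, then 3 with no count filter, 3 with the replicate block (C1s and C1r added), 2 with only the groups compared, and 0 after thinning or with the fold minimum. The replicate block changed no other number of members by over 1.5 times. Leaving out 1 library gave 1 to 2 with Dex, 3 to 5 with LiCl (3 without control replicate 1 or LiCl replicate 3), 2 to 4 with LiCl added to Dex, 2 to 4 with both drugs against control, 0 to 1 against LiCl, and 0 for the interaction. Thinning removed Cfd and Serping1 from the test, so fewer members could pass.

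Of the other complement genes, 4 passed with Dex and 7 with no count filter, 3 with LiCl and 1 with the fold minimum, 3 with LiCl added to Dex (6 with no count filter, 5 with the replicate block, 1 with the fold minimum), and 7 with both drugs against control (11 with filterByExpr, 12 with no count filter, 4 with the fold minimum). With 1 library left out the numbers were 4 to 5, 0 to 5, 2 to 5 and 5 to 8, and 3 to 4 against LiCl.

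Over all genes the fold minimum moved the number that passed from 1379 to 358 with Dex, from 1338 to 199 with LiCl, from 1084 to 172 with LiCl added to Dex, from 2848 to 551 with both drugs against control, and from 866 to 253 against LiCl. With only the groups compared, 905 genes passed with Dex. For the interaction 1 gene passed, and 37 with no count filter, 3 with the replicate block and 25 with DESeq2. Leaving out 1 library gave 701 to 1577 genes with LiCl, 587 to 1454 with LiCl added to Dex and 0 to 2 for the interaction. Depth limits Cfd and Serping1 most, which had 27 to 50 and 16 to 39 counts outside control. The causes of the other changes were not tested.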
